A study of Mus musculus with 8 samples.

Results

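Basement membranes were followed through 10 genes listed by symbol, Col4a1, Col4a2, Col15a1, Lama2, Lama4, Lamb1, Lamc1, Nid1, Nid2 and Hspg2, out of the 28001 genes in the count matrices. Unique molecular identifiers (UMIs, each counting 1 captured transcript) were measured in 8 droplet libraries of single mouse forelimb cells. Cells with at least 3000 UMIs and at most 10% mitochondrial UMIs were kept, 53085 of 57469 barcodes.

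All embryos were C57BL/6J and carried Hic1CreERT2/CreERT2 and Rosa26LSLtdTomato/tdTomato, a tamoxifen-dependent Cre expressed from the Hic1 locus with a Cre-dependent red reporter. Dams were gavaged with 7.5 mg tamoxifen at embryonic day 10, so that tdTomato marked cells in which Hic1 drove Cre around that time, and their descendants. The 6 sorted libraries held tdTomato+ mesenchymal progenitors (MPs) and their progeny at 5 stages from E11.5 to E16.5, a day apart up to E14.5, the last stage as a proximal library (the elbow with the adjoining stylopod and zeugopod) and a distal library (the autopod with the distal zeugopod). The 2 whole limb libraries held tdTomato+ and tdTomato- cells of E11.5 forelimbs together. Cells bearing blood, immune or endothelial surface markers had been gated out of the sorts, and the whole limb cells were lineage-negative as well. Each library pooled the forelimbs of several embryos of both sexes, and each sorted group was 1 library. Differences between sorted libraries therefore have no replicate check, and their intervals cover counting error only.

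Levels are given as CPM, the UMIs of a gene per 1000000 summed UMIs of the same cells, with epithelial-like clusters left out. A 3′ UMI count depends on how well each transcript is captured, so a gene's level was compared with itself across libraries and cell classes. Levels of different genes were not compared, apart from the ratio of Col4a1 to Col4a2 UMIs. Median depth was 6788 to 18473 UMIs per cell. The E11.5 to E13.5 libraries were made with the v2 kit and the E14.5 and E16.5 libraries with the v3 kit, and the dissociation enzymes changed between E12.5 and E13.5, so that stage, kit and enzyme cannot be told apart across those steps. Hic1 stood at 23.7 to 38.0 CPM in the sorted libraries against 0.702 and 0.741 CPM in whole limb replicates 1 and 2, and tdTomato was 430 CPM or more in each sorted library against 3.88 and 4.21 CPM.

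Basement membranes are thin sheets of extracellular matrix that underlie epithelia and surround blood vessels, muscle fibres, fat cells and Schwann cells. Laminins, trimers of an alpha, a beta and a gamma chain, polymerise at the cell surface, and collagen IV forms a second network that gives the sheet its strength. Nidogens and perlecan bind both networks, and collagen XV lies at the face of the sheet towards the fibrillar matrix. In the limb the sheets lie beneath the ectoderm and around the growing muscles, nerves and vessels, and mesenchymal cells supply part of their components.

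Every member was higher at E16.5 than at E11.5. In the sorted time course 10 of 10 members were 2-fold or more higher in the E16.5 proximal library than at E11.5, with ratios from 2.65 for Nid2 to 31.7 for Col15a1. The Col15a1 ratio rests on 11 UMIs at E11.5 and was 181 with mitotic-like clusters left out. Of the 7251 genes that reached 20 CPM in either library, 12% were 2-fold or more higher and 29.2% were 2-fold or more lower. Col15a1 stayed under 20 CPM in both and is not among those genes. The median log2 ratio was 2.49 over the other 9 members and -0.49 over all genes tested. Scaling by trimmed means (TMM) in place of total UMIs multiplied each ratio between these libraries by 1.32, a shift of 0.40 on the log2 scale, and turned no member's direction.

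Most of the difference lay in the later stages. Between E11.5 and E12.5 and between E12.5 and E13.5, Col15a1 alone moved by 2-fold, where 2.76% and 3.14% of genes did so in either direction. These shares are over genes that reached 20 CPM in either library, as 6 members did, without Col15a1, Lama2, Lamc1 and Hspg2. From E11.5 to E13.5 it was again 1 of 10 members, beside 8.09% of genes, and 4 members passed 1.5-fold, beside 24.4% of genes. Of the 6 members at 20 CPM none passed 2-fold and Lamb1 alone passed 1.5-fold. With pericyte-like clusters left out, Col4a2 passed 1.5-fold too, at 1.66. From E13.5 to E14.5, Col4a1, Lamc1 and Nid1 were 2-fold or more higher, 3 of 10 members, beside 4.32% of genes, and Hspg2 was just under the threshold at 1.99. TMM scaling multiplied these ratios by 1.14, and 6 of 10 then passed, beside 6.27% of genes on that scale, with Hspg2, Lama4 and Col4a2 at 2.27, 2.06 and 2.01. The kit also changed at this step. From E14.5 to the E16.5 proximal library, both made with the v3 kit and the same enzymes, 8 of 10 members were 2-fold or more higher, beside 5.02% of 6316 genes, and none was lower (4.77% of genes). The members short of the threshold were Lamb1 at 1.86 and Col15a1 at 1.52. The autopod was part of the E14.5 forelimbs and not of the proximal piece taken at E16.5.

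**Figure D1:**
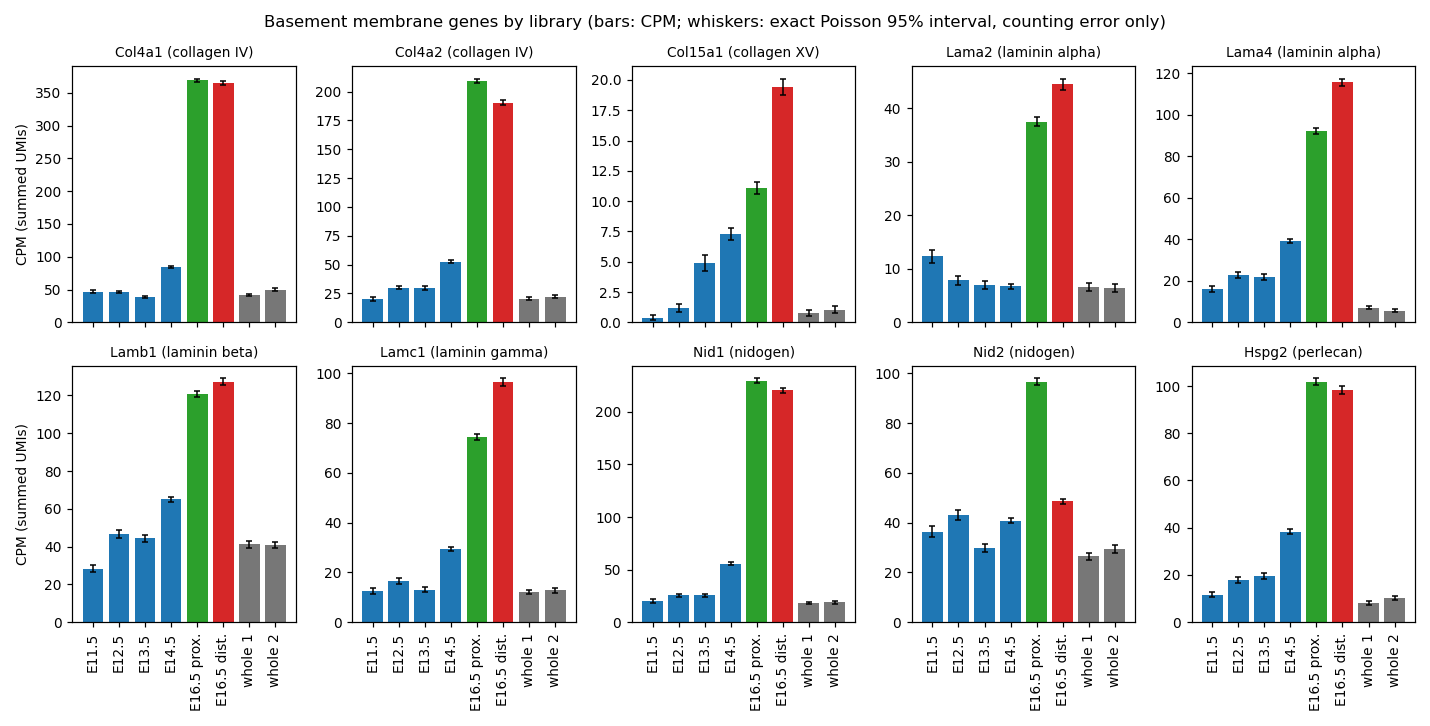
Each panel plots 1 gene, with CPM of summed UMIs on the vertical axis (each panel with its own scale from 0) and the 8 libraries on the horizontal axis, sorted E11.5 to E14.5 in blue, E16.5 proximal in green, E16.5 distal in red and the whole limb E11.5 replicates in grey; whiskers are exact Poisson 95% intervals of counting error. In each panel both E16.5 libraries stand above every earlier library, with Nid2 at 96.6 CPM proximally and 48.6 CPM distally.

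Collagen IV stayed within 2-fold of its E11.5 level until E13.5 and was far higher at E16.5. Col4a1 and Col4a2 encode the alpha 1 and alpha 2 chains, which join in a trimer of the common form of collagen IV found in most basement membranes. Col4a1 measured 46.6, 46.2, 38.7 and 84.1 CPM from E11.5 to E14.5, then 369.1 CPM proximally and 365.0 CPM distally at E16.5. Col4a2 measured 19.9, 30.03, 29.8 and 52.5 CPM and then 209.2 and 190.1 CPM. For both genes the E16.5 segments stood far above every earlier library, with E14.5 between. The E16.5 proximal level was 4.39 times (95% interval 4.30 to 4.48) the E14.5 level for Col4a1 and 3.99 times (3.89 to 4.09) for Col4a2.

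The collagen IV genes lie head to head on chromosome 8 of GRCm38, Col4a1 (ENSMUSG00000031502) on the minus strand at chr8:11198423-11312826 and Col4a2 (ENSMUSG00000031503) on the plus strand at chr8:11312805-11449287, so that their annotated 5′ ends overlap by 22 bases. Their promoter windows are shown because the members share this start region and were high in the same stages and cell classes. Each window, from RefSeq on GRCm38.p6, runs from 250 bases before the annotated start to 50 after it, at chr8:11312777-11313076 for Col4a1 (minus strand) and chr8:11312555-11312854 for Col4a2 (plus strand). Capitals mark every CCAAT box (CCAAT, or ATTGG on the other strand) and GC box (GGGCGG, or CCGCCC).
Col4a1: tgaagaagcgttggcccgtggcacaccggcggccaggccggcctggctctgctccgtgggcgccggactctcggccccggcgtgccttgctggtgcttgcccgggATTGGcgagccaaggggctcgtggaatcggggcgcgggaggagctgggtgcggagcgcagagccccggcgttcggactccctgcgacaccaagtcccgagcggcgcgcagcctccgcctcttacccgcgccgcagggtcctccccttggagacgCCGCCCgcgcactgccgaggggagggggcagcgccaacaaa
Col4a2: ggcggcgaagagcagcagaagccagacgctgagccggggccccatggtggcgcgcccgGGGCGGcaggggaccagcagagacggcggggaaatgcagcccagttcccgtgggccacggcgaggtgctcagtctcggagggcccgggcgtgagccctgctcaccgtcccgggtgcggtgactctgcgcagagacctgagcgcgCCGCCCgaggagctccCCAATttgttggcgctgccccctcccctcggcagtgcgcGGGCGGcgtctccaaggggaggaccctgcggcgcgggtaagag

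The Col4a1 window was 74.0% GC with 37 CpG and the Col4a2 window 73.7% GC with 33 CpG, against medians of 52.7% GC and 7 CpG over the 32851 promoters of the table. The windows share 78 bases, and the GC box at chr8:11312812-11312817 lies in both. In all, the Col4a1 window held 1 CCAAT box and 1 GC box and the Col4a2 window 1 CCAAT box and 3 GC boxes, with both strands searched. A TATA box (TATAAA) was in neither. Of all promoters in the table, 37.4% held a CCAAT box, 35.7% a GC box and 13.6% a TATA box. Promoters of Col15a1, Lama2, Lamb1, Nid1 and Hspg2 were also in the table, 7 of 10 members in all, and those of Lama4, Lamc1 and Nid2 were not. GC content in those 5 windows ran from 50.3% for Lama2 to 70.3% for Hspg2, and a TATA box was in none of the 7.

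Among the laminin chains, Lama2 was lower at E12.5 to E14.5 than at E11.5, and the others were lowest at E11.5. Lama2 encodes the alpha chain of the laminins of muscle and Schwann cell basement membranes, and lies at chr10:26980036-27619758. It was 12.3, 7.87, 6.94 and 6.71 CPM from E11.5 to E14.5, and then 37.5 CPM proximally and 44.5 distally at E16.5. The E11.5 level was the highest before E16.5, and the step from E14.5 to E16.5 proximal, 5.59-fold (5.21 to 6.00), had the highest ratio of the 10 members. Lama4, the alpha chain typical of vessel walls and other mesenchymal basement membranes, measured 15.9, 22.7, 21.7 and 39.1 CPM and then 92.0 and 115.6 CPM. Lama4 was 2.35 times higher (2.28 to 2.43) in the E16.5 proximal library than at E14.5.

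Lamb1 and Lamc1 encode the beta 1 and gamma 1 chains that pair with many alpha chains, those of Lama2 and Lama4 included. Lamb1 went through 28.3, 46.5, 44.4 and 65.0 CPM to 120.9 CPM proximally and 127.3 distally. Lamc1 went through 12.4, 16.5, 13.02 and 29.4 CPM to 74.4 and 96.5 CPM. Both were higher in each E16.5 library than in any earlier one. Lamc1 more than doubled from E13.5 to E14.5 (2.26-fold, 2.07 to 2.47) and again to E16.5 proximal (2.53-fold, 2.44 to 2.62), whereas Lamb1 was 1.46 times and 1.86 times higher over these steps. With TMM scaling the second Lamb1 step also passed 2-fold.

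The nidogens, linkers between the laminin and collagen IV networks, differed from each other. Nid1 was 20.1, 25.4, 25.6 and 55.7 CPM from E11.5 to E14.5, and 229.9 and 220.7 CPM in the proximal and distal E16.5 libraries. Nid2 was 36.4, 43.1, 29.8 and 40.8 CPM over the same stages, and 96.6 and 48.6 CPM at E16.5. Nid1 was 11.4 times (10.6 to 12.4) its E11.5 level in the E16.5 proximal library, and Nid2 2.65 times (2.5 to 2.82), the smallest ratio among the members. In the distal library Nid2 was close to its earlier levels.

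Hspg2, which encodes the heparan sulphate proteoglycan perlecan, was higher at each stage to E16.5 proximal, with 11.7, 17.8, 19.3 and 38.4 CPM and then 101.9 and 98.3 CPM. Its E16.5 proximal level was 8.72 times (7.87 to 9.69) that at E11.5. Col15a1, the collagen XV chain, was nearly undetected at first, with 11 UMIs in the E11.5 library, and was 0.349, 1.18, 4.87 and 7.28 CPM before reaching 11.1 CPM proximally and 19.4 CPM distally. Its largest steps came before E14.5, 3.37-fold (1.74 to 7.16) to E12.5 and 4.14-fold (3.05 to 5.71) to E13.5. In the E12.5 library 1 cell held 12 of its 52 Col15a1 UMIs. With 1 library a stage, a difference in timing between members could not be tested.

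**Figure D2:**
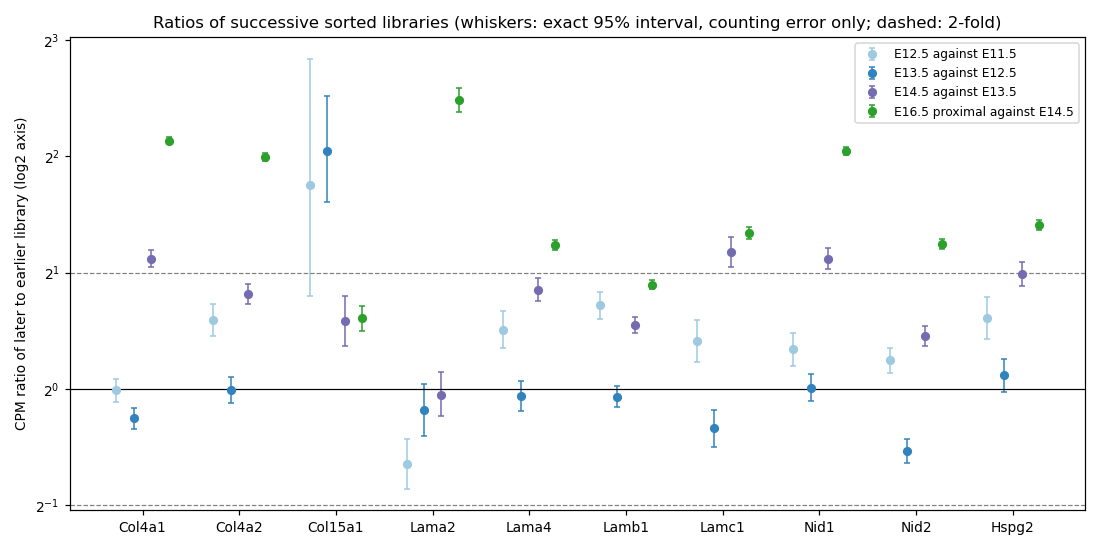
For each gene, points give the ratio of CPM between successive sorted libraries on a log2 axis (light blue E12.5 over E11.5, blue E13.5 over E12.5, purple E14.5 over E13.5, green E16.5 proximal over E14.5), with exact 95% intervals of counting error and dashed lines at 2-fold. The green points lie above the upper line for 8 genes, and for Col15a1 the E12.5 and E13.5 ratios of 3.37 and 4.14 are its highest.

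A single cell stood apart in the earliest collagen IV values. In the E11.5 library 1 cell with 11412 UMIs held 172 of the 1468 Col4a1 UMIs (11.7%), 69 of the 628 Col4a2 UMIs (10.99%) and 36 of the 633 Nid1 UMIs (5.69%), while no other cell there held more than 5 Col4a1 UMIs. It also held 230 Sparc UMIs, 181 Serpinh1 UMIs, 18 of the 55 Lama1 UMIs and 17 of the 32 Krt8 UMIs, but 1 tdTomato UMI and no Hic1 UMI. Clustering of the sorted time course placed it with pericyte-like cells although it had UMIs for 0 of 10 pericyte markers, and no cell type is given to it here. Without it 10 of 10 members were again 2-fold or more higher at E16.5 proximal than at E11.5, with Col4a1 at 8.97-fold in place of 7.92-fold.

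Several members also differed between E14.5 and E16.5 in cell classes of the same name. In a sum over a library, more cells of a type and more RNA per cell cannot be told apart. Clusters were named only from marker lists, with the members and related matrix genes kept out of the clustering, and 3 classes other than epithelial-like had at least 50 cells in both libraries. Different clusters held each of these classes at the 2 stages. Tenocyte-like cells lay in a cluster led by Six2 and Mia at E14.5 (1123 of its 1126 cells) and in one led by Cilp and Tnmd at E16.5 (935 of 937). Mitotic-like cells lay in clusters led by Kpna2 and by Hist1h1b, and dermal fibroblast-like cells in clusters led by Calb1 and by Col7a1. The ratios therefore compare classes that share a name and markers, and cells of 1 kind at the 2 stages cannot be told apart in them from different kinds. Col4a1 was 3.80 times higher at E16.5 proximal in dermal fibroblast-like cells, 5.80 times in mitotic-like cells and 3.71 times in tenocyte-like cells. Col4a2 (3.20 to 4.51) and Lama2 (3.34 to 6.22) were likewise 2-fold or more higher in all 3 classes. Lama4, Lamb1, Lamc1, Nid1 and Hspg2 passed 2-fold in 2 of 3 classes. By class, 5 of 10 members were 2-fold or more higher in dermal fibroblast-like cells, beside 4.08% of genes, 9 in mitotic-like cells, beside 5.21%, and 7 in tenocyte-like cells, beside 4.45%. These shares are over genes that reached 20 CPM at either stage, as 9, 9 and 10 members did in these classes. Of those members 4, 9 and 7 were 2-fold or more higher. Nid2 was 2.92 times higher in mitotic-like cells but 0.71 times in dermal fibroblast-like cells. Col15a1 was 2.06 times higher in dermal fibroblast-like cells and was 26.2 CPM at E14.5 and 2.32 CPM at E16.5 in tenocyte-like cells, that is, in the Six2 and the Cilp cluster.

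The mean number of members found per cell was also higher at E14.5 and E16.5 than before. With every cell thinned to 3000 UMIs, so that depth was equal, the mean number of members detected per cell was 0.598, 0.713, 0.625 and 1.05 from E11.5 to E14.5, and 2.38 and 2.57 in the proximal and distal E16.5 libraries. Cells with 5 or more of the 10 members made up 0.0632% of the E11.5 library, 0.477% of the E14.5 library and 11.15% and 11.96% of the E16.5 libraries. Col4a1 was detected in 12% of thinned cells at E11.5, 19.7% at E14.5 and 48.0% and 51.4% at E16.5, and at full depth in 31.8%, 56.8%, 80.7% and 86.5%. In epithelial-like cells of the E16.5 libraries, which were deeper (median 37445 and 29487 UMIs against 18473 and 17275 over all cells), the thinned share was 10.7% and 15.2%, a level to which RNA free in the droplets can contribute.

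The E16.5 cell classes differed in every member. The highest named class stood at 4 times or more the lowest in both segments for 10 of 10 members, where 34.0% of the 7159 genes tested did so. Lamc1 dropped out with thinned cells (3.24-fold distally), and Lamc1, Lama4 and Hspg2 did with cells called one by one from markers (3.99-, 2.87- and 3.45-fold distally). Of the cells, 4079 of the proximal and 3639 of the distal library lay in clusters that no marker list named, and these are described below only by their leading genes. The lowest class was epithelial-like or, in the proximal library, chondrocyte-like for every member. Distally it was epithelial-like for all 10 members, so the count rests there on a class left out of the levels above. With cells called one by one the lowest distal class was never epithelial-like. That comparison took only classes with at least 50 cells, a number that epithelial-like cells may not have reached there.

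Collagen IV was highest in pericyte-like cells, named for the mural cells of small vessels. Col4a1 reached 1279 CPM in the 382 proximal and 1600 CPM in the 206 distal pericyte-like cells, against 436 and 349 CPM in the next named class, dermal fibroblast-like, and 491 and 613 CPM in an unnamed cluster with muscle fibre genes. Col4a2 reached 607 and 697 CPM. Relative to all other cells outside epithelial-like clusters of the same segment, Col4a1 was 3.91 times (3.83 to 3.99) and 4.94 times (4.82 to 5.06) higher, and Col4a2 3.18 and 4.02 times higher. With these clusters they were the only members to pass 2-fold in both segments, 2 of 10, beside 3% of 5698 genes. Lamc1 was 1.60 and 1.72 times and Lama4 1.31 and 1.79 times the level of the other cells. The levels depended on the clusters taken. With a finer clustering (Leiden resolution 2) 164 proximal and 64 distal cells were pericyte-like, with Col4a1 at 1595 and 2486 CPM. There a further cluster of 219 proximal and 159 distal cells, led by Ccl11, had 6 of 10 pericyte markers raised but was unnamed.

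Pericyte-like cells were 3.15% of the proximal library (350 cells, clustered with the earlier sorted stages) and 2.44% of the distal library (206 cells, clustered with the proximal library), so the shares come from separate clusterings. They held 14.2% and 14.04% of the Col4a1 UMIs and 11.9% and 11.7% of the Col4a2 UMIs. In the E14.5 library they were 35 cells, or 0.418%. Leaving them out, Col4a1 was still 4.10 times and Col4a2 3.78 times higher at E16.5 proximal than at E14.5. In the clustering of both segments 9 of the 10 pericyte markers were raised in the class, which was named from them, with Rgs5 at 467 CPM and Acta2 at 1413 CPM proximally. The marker Cspg4 was 45.6 CPM proximally and 61.4 CPM distally in it, and reached 424 CPM in another E16.5 cluster.

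Summed markers of vessel lining were higher in this class than over each library, and those of blood in its proximal cells. All 8 endothelial markers had UMIs in it, summing to 223 CPM proximally and 82.2 CPM distally against 46.8 and 36.6 CPM over each library. Distally they ran from 0.993 CPM for Kdr and 2.18 CPM for Cldn5 to 34.2 CPM for Esam. Haemoglobin and other erythroid genes summed to 1044 CPM proximally and 14.3 CPM distally against 86.0 and 63.6 CPM over each library. Among the 109 proximal and 86 distal pericyte-like cells without any endothelial UMI, Col4a1 was 3.69 and 4.65 times and Col4a2 3.14 and 3.96 times the level of other such cells. Col15a1 varied with the cells taken. It was 3.02 times higher in pericyte-like cells of the proximal segment and 1.15 times in the distal segment. In cells without an endothelial UMI these ratios became 0.755 (0.477 to 1.14) and 0.152 (0.0612 to 0.314). Esam, 1 of the 8 endothelial markers, was also among the 10 leading genes of the pericyte-like cluster. Leaving out cells with an endothelial UMI therefore also left out pericyte-like cells with Esam UMIs. With Leiden resolution 2, Col15a1 in pericyte-like cells was 72.3 CPM proximally and 63.4 CPM distally. With cells called one by one it was 44.1 and 56.5 CPM, against 11.1 and 19.4 CPM over each library.

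Cartilage differed from the other classes. In the 701 chondrocyte-like cells of the proximal library, which make a matrix known to be rich in perlecan, Hspg2 was at 196 CPM and Col15a1 at 56.4 CPM, the highest of any named class there. With a finer clustering (Leiden resolution 2) pericyte-like cells came first for Col15a1, at 72.3 CPM against 47.9 CPM in chondrocyte-like cells. Hspg2 was 2.06 times (1.98 to 2.15) and Col15a1 7.21 times (6.59 to 7.88) the level of the other cells. The laminin chains were low, with Lama2 at 1.05 CPM, Lamb1 at 5.26 CPM and Lamc1 at 9.47 CPM, 0.0263, 0.0407 and 0.120 times the other cells, while Lama4 kept 51.7 CPM. Col4a1 was 31.4 CPM, or 12.5-fold lower than elsewhere. How low depended on the clusters taken. In the 1066 chondrocyte-like cells that the time course clustering gave for the same library, Lama2 was 5.60, Lamb1 22.7, Lamc1 19.6 and Col4a1 91.7 CPM, with Hspg2 at 175 and Col15a1 at 54.2 CPM. In the distal library an unnamed cluster of 229 cells led by Cytl1, Matn3 and Ucma had Col15a1 at 118 CPM and Hspg2 at 178 CPM, with Lama2 at 2.95 CPM and Lamb1 at 15.7 CPM. It had all 9 chondrocyte markers raised, but none of them stood among its 10 leading genes, which held Sox5 of the perichondrial list.

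The other named classes differed gene by gene. Among named classes Lama2 was highest in dermal fibroblast-like cells, at 51.6 CPM proximally and 82.3 CPM distally, 1.41 and 2.14 times the other cells. Nid2 was nearly absent from the same cells, at 9.27 and 8.07 CPM, 0.0907 and 0.147 times the other cells. Nid1 and Nid2 were highest of the named classes in the fibroblast-like cells of the proximal library, at 328 and 112 CPM, and in the pericyte-like cells of the distal library, at 422 and 70.7 CPM, where an unnamed cluster led by Grin2a and Dkk2 had Nid2 at 81.2 CPM. These first places of the nidogens passed to other classes under some of the other settings. Tenocyte-like cells, the tendon class, were low in Nid2 (20.3 and 9.37 CPM) and in Col15a1 (1.80 and 1.43 CPM) but near the other cells in Hspg2 (94.1 and 113 CPM). Perichondrial-like cells, found almost only in the distal library, had Col15a1 at 44.4 CPM and Lama2 at 15.5 CPM. Lamb1 was 183 CPM proximally and 309 CPM distally in an unnamed cluster led by 5330417C22Rik with the muscle fibre genes Acta1 and Tnnc2, above all named classes. Lama2 was 52.4 and 110.7 CPM and Nid2 155 and 157 CPM there, also above the named classes.

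**Figure D3:**
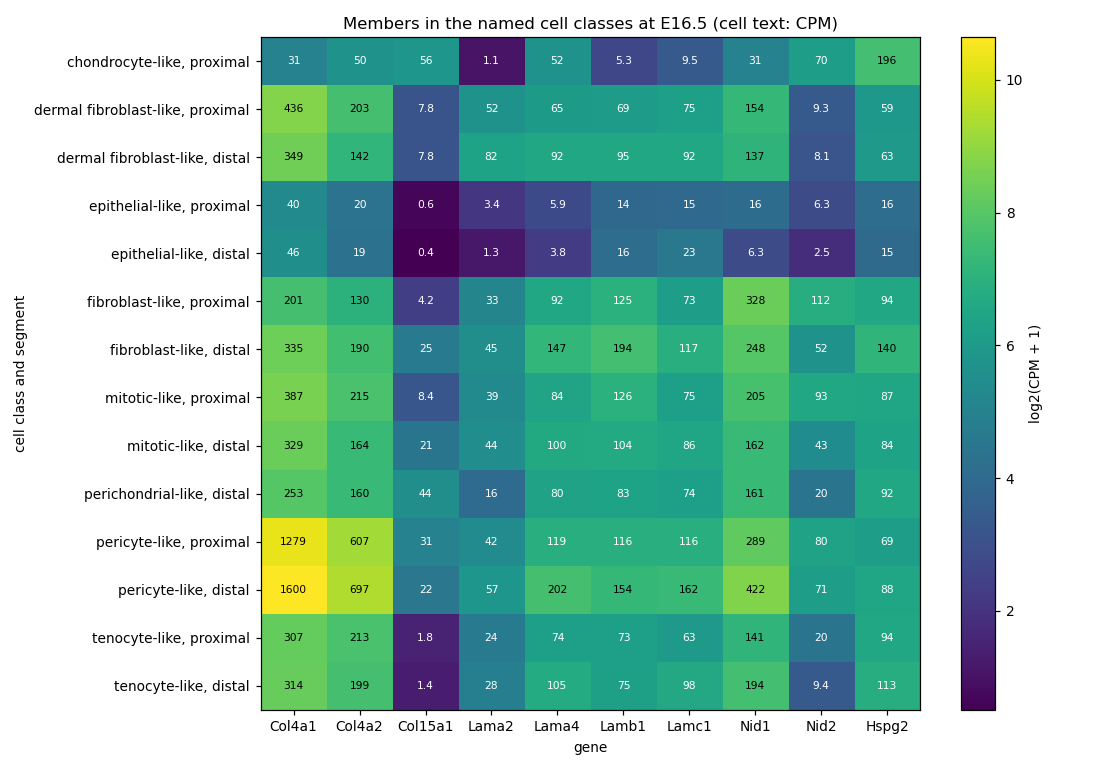
Rows are the named classes of each E16.5 segment with at least 50 cells, columns are the 10 genes, numbers in the cells are CPM and colour is log2(CPM + 1). Collagen IV is brightest in the pericyte-like rows (1279 and 1600 CPM for Col4a1), and the chondrocyte-like row is bright for Hspg2 at 196 CPM and dark for Lama2 at 1.05 CPM.

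Col4a1 and Col4a2 UMIs stood in different ratios in the libraries and classes. The ratio of Col4a1 to Col4a2 UMIs was 2.34 (2.13 to 2.57), 1.54, 1.30 (1.21 to 1.40) and 1.60 from E11.5 to E14.5, and 1.77 and 1.92 in the proximal and distal E16.5 libraries. Whole limb replicates 1 and 2 gave 2.04 and 2.25. Within E16.5 it was 2.15 and 2.46 in dermal fibroblast-like cells, 2.11 and 2.30 in pericyte-like cells and 1.45 and 1.58 in tenocyte-like cells. The 701 proximal chondrocyte-like cells had fewer Col4a1 than Col4a2 UMIs, at a ratio of 0.632 (0.558 to 0.716). The order turned in the 1066 chondrocyte-like cells of the time course clustering (1.09, 1.02 to 1.16) and was 1.15 in the distal Cytl1 cluster. These ratios compare UMIs and not chains, since the transcripts need not be captured equally well.

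No member was 2-fold apart between the distal and proximal libraries, 0 of 10, beside 5.11% of 6258 genes. Nid2 lay at the threshold, with 48.6 CPM distally and 96.6 CPM proximally, 1.99-fold lower (ratio 0.503, 0.489 to 0.516). Col15a1 was 1.75 times higher distally (1.66 to 1.85), Lamc1 1.30 times and Lama4 1.26 times. The other 6 members lay between 0.909 for Col4a2 and 1.19 for Lama2. Nid2 passed 2-fold under TMM scaling. At a 1.5-fold threshold Nid2 and Col15a1 were apart, 2 of 10, beside 20.5% of genes, of which Col15a1, under 20 CPM, is not one. The headers name Cell Ranger 3.0.2 for the proximal and 6.0.1 for the distal library, so segment and software version cannot be told apart.

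Inside classes the Nid2 difference was uneven. The distal to proximal ratio was 0.463 in fibroblast-like, 0.460 in mitotic-like and 0.461 in tenocyte-like cells, but 0.871 in dermal fibroblast-like and 0.880 in pericyte-like cells. Fibroblast-like cells were mostly different clusters in the segments, a distal cluster led by Cldn3 and Pi16 and a proximal one led by Wnt2 and Ly6a, as were dermal fibroblast-like cells (distally led by Kcna4, proximally by Hs3st6). Mitotic-like cells pooled clusters with unequal shares of the segments. Those led by Mxd3, Scx and Hist1h2ap had Nid2 ratios of 0.617, 0.939 and 1.11, none of them as low as the pooled 0.460. Within the 10 single clusters with 50 or more cells of both segments, the Nid2 ratio had a median of 0.977 and ran from 0.461 to 1.19, and the tenocyte-like cluster was the only 2-fold difference. The unnamed cluster with muscle fibre genes, where Nid2 was 155 and 157 CPM, had 2770 proximal and 181 distal cells, and muscle fibre markers summed to 130 CPM over the proximal and 34.7 CPM over the distal library. The part of this cluster in the difference between segments was not tested.

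Col15a1 went the other way. Its distal to proximal ratio was 5.89 (4.92 to 7.07) in fibroblast-like cells and 2.46 in mitotic-like cells, 1.00 in dermal fibroblast-like cells and 0.723 in pericyte-like cells. In the fibroblast-like cluster led by Wnt2, with 90 distal and 2025 proximal cells, it was 0.734 (0.266 to 1.63, on 6 distal UMIs). Within the 10 shared clusters it ran from 0.723 to 15.0, the last in an unnamed cluster led by Grin2a and Dkk2 where only 3 proximal UMIs were counted (interval 5.08 to 73.2), and it was 2-fold apart in 4. Lama2 (1.13 to 1.59), Lama4 (1.18 to 1.69) and Lamc1 (1.15 to 1.61) were higher distally in each of the 5 classes. Over the shared single clusters Lama2 ran from 1.02 to 2.24, Lama4 from 0.988 to 1.69 and Lamc1 from 1.00 to 1.68. In the dermal fibroblast-like cluster led by Hs3st6 Lama4 was 0.988 (0.839 to 1.16) and Lamc1 1.07 (0.920 to 1.23), while Lama2 was 2.24 (1.95 to 2.55).

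**Figure D4:**
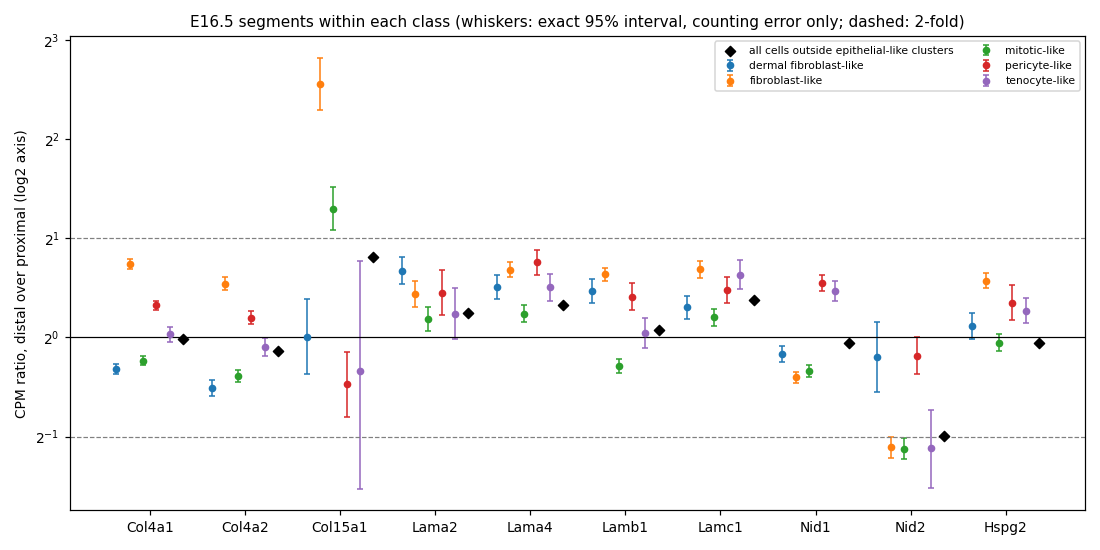
Points give the distal over proximal CPM ratio of each gene on a log2 axis, coloured by cell class, with exact 95% intervals of counting error, black diamonds for all cells outside epithelial-like clusters and dashed lines at 2-fold. Nid2 sits at 0.460 to 0.463 in 3 classes and at 0.871 and 0.880 in the other two, and the fibroblast-like point of Col15a1 is highest at 5.89. The mitotic-like point of Nid2 pools clusters whose own ratios were 0.617, 0.939 and 1.11.

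Some members varied together over the 20 E16.5 clusters. Pearson's r of log2(CPM + 1) was 0.95 between Col4a1 and Col4a2, 0.94 between Col4a1 and Lamc1 and 0.92 between Lamb1 and Lamc1. Col15a1 reached 0.63 with Hspg2 and was at -0.15 with Lama2. Among the 8519 genes outside the members, the most alike were F2r, Cdc42ep4 and Adamts4 for Col4a1 (r 0.93 to 0.91), Cdr2l, Plekhg2 and Sept2 for Col4a2 (0.94 to 0.93), F2r, Ppp1r18 and Rbms3 for Lamc1 (0.95 to 0.94) and Flnc, Limk1 and Lhfpl2 for Lamb1 (0.95 to 0.94). Lama2 was closest to Nrp1, Sorcs2 and Col3a1 (0.96 to 0.94), Lama4 to Rab31, Vapb and Cxx1a (0.96 to 0.95), Nid1 to Dennd2a, Zcchc24 and Vapb (0.98 to 0.95) and Nid2 to Dlk1, Plagl1 and Nrk (0.96 to 0.93). Hspg2 was closest to Chsy1, Arfgap3 and Rcbtb1 (0.95) and Col15a1 to Cspg4, Chst3 and Slc7a2 (0.91 to 0.85). The clusters share 2 libraries, their depth and their mix of free RNA, and these values are a description.

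At E11.5 the sorted MPs were set against whole limb mesenchyme, which holds tdTomato+ and tdTomato- cells, the comparison of labelled cells with the tissue they are found in. The study found tdTomato+ cells mostly in proximal pieces of forelimbs at this stage. Label and position in the limb therefore cannot be told apart here. Clusters with a glial-, immune-, erythroid-, myogenic-, endothelial-, muscle fibre- or epithelial-like name were left out, and the 3156 sorted and 5077 and 5331 whole limb cells that remained were summed per library and tested with edgeR's quasi-likelihood test. The test has 1 residual degree of freedom and assumes that the spread of the whole limb pair holds for the sorted library too (biological coefficient of variation 8.03%). Its p-values measure the spread between these samples, which may be technical. Of the 10 members 5 were called at an adjusted p of 0.05, 2 higher and 3 lower, beside 53.4% of 15036 genes (26.7% in each direction). The members' share was near that of all genes.

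The laminin alpha chains were higher in the sorted cells. Lama4 was 16.03 CPM in the sorted library and 6.74 and 5.71 CPM in whole limb replicates 1 and 2, a log2 difference of 1.18 ± 0.15 (SE, edgeR adjusted p = 4.55e-14). Lama2 was 12.3 CPM against 5.62 and 5.37 CPM, a log2 difference of 0.98 ± 0.16 (edgeR adjusted p = 5.54e-09). Neither gene's sorted value lay near the whole limb pair. Lamb1 was lower in the sorted cells, at 27.5 CPM against 40.4 and 40.0 CPM (log2 difference -0.73 ± 0.13, edgeR adjusted p = 4.25e-08).

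For collagen IV the differences were small and passed the threshold in edgeR but not in DESeq2. Col4a2 was 17.8 CPM against 20.02 and 21.6 CPM (log2 difference -0.41 ± 0.13, edgeR adjusted p = 0.00482). Col4a1 was 41.3 CPM, inside the range of the whole limb values of 40.8 and 49.3 CPM, and had a log2 difference of -0.31 ± 0.11 on the TMM scale (edgeR adjusted p = 0.0152). In DESeq2 the adjusted p of neither passed. The sorted cells left out of this test included the single cell rich in collagen IV. Over all cells past the filters Col4a1 was 46.6 CPM in the sorted library against 41.7 and 49.8 CPM in whole limb replicates 1 and 2. Col4a2 was 19.9 CPM against 20.5 and 22.1 CPM. Hspg2 (log2 difference 0.32, adjusted p = 0.0656), Nid2 (0.24, adjusted p = 0.0962), Nid1 (-0.19, adjusted p = 0.210), Lamc1 (-0.16, adjusted p = 0.354) and Col15a1 (0.76, adjusted p = 0.337) did not pass edgeR's threshold. Col15a1 rested on 11, 5 and 12 UMIs.

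Cells left out of that test carried some members at high levels. In the 75 and 59 endothelial-like cells of the whole limb replicates, a cluster that also held platelet genes, Col4a1 was 173 and 195 CPM and Col15a1 34.96 and 66.7 CPM. In the 312 and 292 myogenic-like cells Lama2 was 18.8 and 21.4 CPM, while Nid1 was 3.25 and 3.10 CPM and Lama4 1.75 and 1.41 CPM. With all cells included, Col15a1 was lower in the sorted library, at a log2 difference of -1.49.

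**Figure D5:**
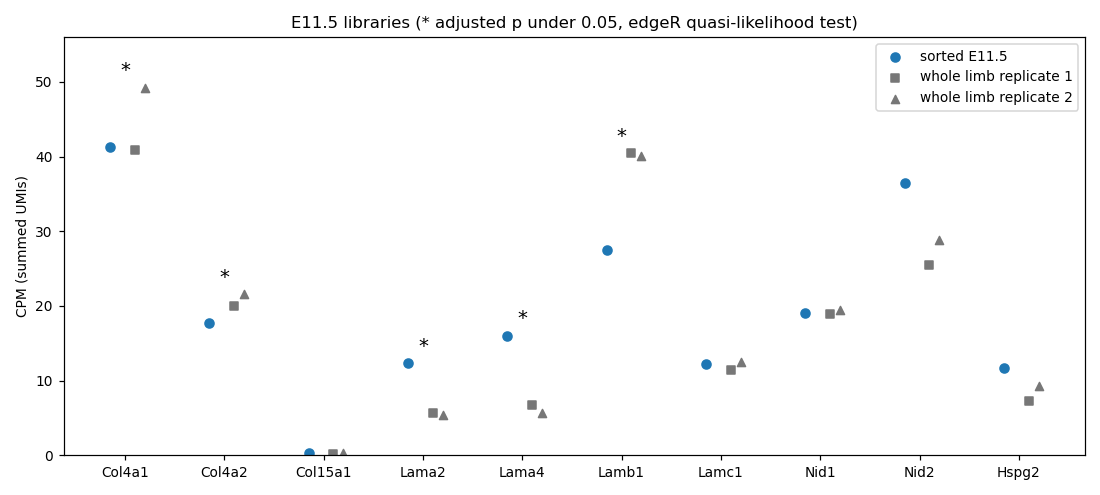
CPM of each gene at E11.5 in the sorted library (blue circles) and whole limb replicates 1 and 2 (grey squares and triangles), with asterisks for an adjusted p under 0.05 in edgeR's quasi-likelihood test. Lama2 and Lama4 stand above both whole limb values (16.03 against 6.74 and 5.71 CPM for Lama4), Lamb1 stands below them, and for Col4a1 the sorted value of 41.3 lies between 40.8 and 49.3.

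Other parts of the basement membrane were counted in 3 lists. Of 24 other basement membrane genes, 7 reached 20 CPM in the comparison of E16.5 proximal with E11.5. Their median log2 ratio was 2.03, and 4 were 2-fold or more higher and 1 lower, beside 12% and 29.2% of genes. The named extremes were Sparc, a collagen-binding matricellular protein (132 to 2933 CPM, 22.3-fold), Smoc2 (50.5 to 355 CPM, 7.03-fold) and Lamb2, an alternative beta chain (7.78 to 35.8 CPM, 4.60-fold). From E14.5 to E16.5 proximal 3 of 5 were higher and 1 lower, beside 5.02% and 4.77% of genes, with a median log2 ratio of 1.36 beside -0.16 over all genes. Here the extremes were Hmcn1, which encodes hemicentin 1 (111 to 29.6 CPM), Sparc (2.63-fold) and Col18a1, the collagen XVIII chain (12.8 to 35.4 CPM, 2.76-fold). Between the segments, where no member passed 2-fold, 4 of 8 were higher distally and 1 lower, beside 3.45% and 1.66% of genes, with Npnt (5.40 to 25.1 CPM), Hmcn1 (29.6 to 120 CPM) and Frem1 (11.01 to 25.5 CPM) furthest from equal and a median of 0.80 beside 0.08 over all genes.

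Of 11 receptor genes 3 reached 20 CPM in the comparison of E16.5 proximal with E11.5, and Dag1, which encodes dystroglycan (22.3 to 57.1 CPM, 2.56-fold), and Itgb1, the integrin beta 1 chain (219 to 488 CPM, 2.23-fold), were 2-fold higher, beside the same 12% of genes, while the collagen receptor Ddr2 was 80.3 and 64.0 CPM. Their median log2 ratio was 1.15. From E14.5 to E16.5 proximal Itgb1 alone passed, at 2.02-fold, and the median was 0.63. None of 4 passed between the segments, where the median was 0.59.

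Of 13 collagen chaperones and modifying enzymes 12 reached 20 CPM, and 6 were already 2-fold higher at E13.5 than at E11.5, beside 4.1% of genes and with the dissociation enzymes changed in between. At E16.5 proximal 7 were 2-fold higher than at E11.5, beside 12% of genes, with Crtap (17.9 to 158 CPM), P4ha2 (18.0 to 137 CPM) and P3h1 (36.4 to 144 CPM) foremost and a median log2 ratio of 1.40. From E14.5 to E16.5 proximal P4ha2 alone passed (2.57-fold), with a median of 0.53, and between the segments none did, with a median of -0.11. The collagen chaperone Serpinh1 was 1137 CPM at E11.5 and 1732 CPM at E16.5 proximal. In the E11.5 test 11 of 17 tested genes of the first list, 3 of 9 receptors and 7 of 13 chaperones and enzymes were called by edgeR, beside 53.4% of all genes, with median log2 differences of 0.23, 0.41 and 0.13 beside 0.01 over all genes. The furthest apart were Egflam (log2 difference 2.20), Smoc2 (1.61) and Col18a1 (-1.32), then Bcam (1.253), Ddr1 (0.92) and Dag1 (-0.54), and P3h3 (1.45), P3h2 (1.19) and Plod1 (1.11).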

How the data were processed

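Single cells of mouse forelimbs were captured by the authors on a 10x Genomics 3′ platform and counted with cellranger against a modified mm10 reference; the headers name Cell Ranger 3.0.2 for 5 sorted libraries and 6.0.1 for the E16.5 distal library, the whole limb headers name none, and the study's software statement names 1 further version for all its single-cell data. The deposited values are raw UMI counts per gene and barcode in 8 libraries, with 32957305 to 236408650 UMIs each. Barcodes with at least 3000 UMIs and at most 10% mitochondrial UMIs were kept, which left out 25.3% of the sorted E11.5 barcodes for low depth and 1.35 to 11.2% elsewhere. Libraries shared at most 1.04% of their barcodes.

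Sorted cells of E11.5 to E16.5 proximal, E16.5 cells of both segments and E11.5 cells were clustered separately with scanpy 1.11.5 (2000 variable genes without members or listed genes, 50 components, 25 neighbours, Leiden resolution 1). A cluster was named "X-like" from the marker list with the highest share raised, where at least 3 markers were raised and no other list had more genes among its 10 leading genes. Muscle fibre markers only barred a name, a rule set after the clusters were seen. Doublets were not removed, since scrublet's own threshold marked too few cells, and an alternative left out the highest scores.

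UMIs were summed over cells. CPM have exact Poisson intervals and ratios exact binomial intervals, both at 95% and for counting error only. Fold counts over all genes used those at 20 CPM or more in either library. E11.5 sums were tested with edgeR 4.0.16 (quasi-likelihood, TMM, Benjamini-Hochberg adjustment), with DESeq2 1.42.0 and limma 3.58.1 as alternatives. On simulated E11.5 counts with 200 genes changed by 4-fold, edgeR recovered 180 with 9 false calls among 14777 genes tested. All 10 members are named, and of each list the 3 genes furthest from equal. The TMM value at E14.5 against E13.5 was added after seeing the data. The members and lists were chosen with earlier results of these data known. Genes named outside that rule (Serpinh1, the genes of the single E11.5 cell, Hmcn1 and Smoc2 in the closing section) were chosen after their values were seen.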

Additional observations from a re-analysis of the deposited data

Results flagged for a closer look

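Col4a2 and Nid1 had distal to proximal ratios on opposite sides of 1 in pairs of E16.5 classes, and neither difference was tested, since each segment was 1 library. Col4a2 was 1.46 times higher distally in fibroblast-like cells and 0.702 times in dermal fibroblast-like cells, a ratio of 2.08 between the classes. Nid1 was 1.46 times higher distally in pericyte-like cells and 0.756 times in fibroblast-like cells, a ratio of 1.93. With Leiden resolution 2 the pericyte-like class held 164 proximal and 64 distal cells in place of 382 and 206. Its distal Nid1 level was then 266 CPM in place of 422 CPM. Fibroblast-like and dermal fibroblast-like cells were mostly different clusters in the segments. In the single clusters of these classes with cells of both segments, the ratios lay above 1. Col4a2 was 1.34 times higher distally in the fibroblast-like cluster led by Wnt2 and 1.12 times (1.03 to 1.22) in the dermal fibroblast-like cluster led by Hs3st6, and Nid1 was 1.27 times (1.18 to 1.36) higher in the Wnt2 cluster. Other shared clusters did differ in direction, with a mitotic-like cluster led by Hist1h2ap lowest for both genes (0.636 for Col4a2 and 0.806 for Nid1) and unnamed clusters highest (1.66, led by Grin2a, and 1.54, led by Dpep1).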

How the results depend on the processing

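The counts of 10 members for E16.5 proximal against E11.5, 8 against E14.5, 10 for the range over classes and 2 for pericyte-like cells stayed within 1.5 times of these values in each alternative run for them. The count for the range over classes was 9 with thinned cells and 7 with cells called one by one. That range lets the count of 2 for pericyte-like cells gain a member. In pericyte-like cells Col15a1 was more than 2-fold above its level over each library in both segments with Leiden resolution 2 and with cells called one by one. Collagen IV alone therefore passed with the main clusters but not under these settings. The highest named class for collagen IV was pericyte-like in every setting run, while that for Col15a1, Lama2, Lama4, Lamb1, Nid1, Nid2 or Hspg2 passed to another class in at least 1. With a 1.5-fold threshold, 4 members (Col15a1, Lama2, Lamb1, Hspg2) were apart between E13.5 and E11.5 and 2 (Col15a1, Nid2) between the segments. Between the segments Nid2 alone passed 2-fold with cells thinned to 3000 UMIs, with TMM factors, with totals without ribosomal, mitochondrial and haemoglobin UMIs and without pericyte-like clusters (1 member each), and Col15a1 alone with all cells included (1 member). At E11.5, 3 of 10 members (Lama2, Lama4, Lamb1) were called with DESeq2, with no filter on low counts and with thinned cells, where the main test called 5. Leaving out a whole limb replicate leaves no residual degree of freedom, and 2 (Lama2 and Lama4, without replicate 1) to 3 members (with Col15a1, without replicate 2) were then 2-fold apart. Over all genes edgeR called 8027, DESeq2 4882 and edgeR without the filter 4076. The log2 difference turned for Col15a1 with all cells (-1.49) and with thinned cells for Nid1 (0.12) and Lamc1 (0.0020), and the cause was not tested. Col15a1 rested on 11 UMIs at E11.5, and without mitotic-like clusters its ratios to E11.5 were 181 (E16.5 proximal) and 72.7 (E13.5). Leaving out the pericyte-like clusters, the richest cell and the 5% of cells with the highest scrublet scores were chosen after seeing the data. The scrublet calls themselves were void, with at most 0.0948% of a library marked. No paired analysis was possible because the sorted groups have 1 library each.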

Other observations

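Hmcn1, which encodes the basement membrane-associated protein hemicentin 1, followed a course unlike the 10 members. It was 48.4 CPM at E11.5 and 111 CPM at E14.5, and then 29.6 CPM in the proximal and 120 CPM in the distal E16.5 library. The whole limb replicates gave 61.3 and 60.4 CPM. Smoc2 had the opposite order at E16.5, at 355 CPM proximally and 164 CPM distally.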
